A study of Caenorhabditis elegans with 16 samples.

Results

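Fatty acid desaturases and elongases remodel the fatty acids that a worm makes itself or takes up from bacteria. Of 9 such genes of Caenorhabditis elegans that were looked up by name (fat-1, fat-2, fat-5, fat-6, fat-7, elo-1, elo-2, elo-5 and elo-6), 8 had values in the deposited tables, which hold 3698 genes in all. All 8 are in the table that compares fasted with fed worms at 20°C (4 desaturases and 4 elongases), and 0 are in the table of heat-shocked worms. fat-2 is in neither table and has no value here. fat-7 was matched by its sequence name, F10D2.9.

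The 16 RNA libraries came from whole wild-type (N2) worms and form 4 groups of 4: fasted and fed worms kept at 20°C, and fasted and fed worms after 30 min at 35°C. Fasted worms spent 24 h on plates without food, starting in the middle of L4, the last larval stage, while fed worms stayed on Escherichia coli OP50, and all worms were grown at 20°C. The sample labels place 24 h of recovery on food between the fast and the exposure. The study's text instead has the worms of the sequencing experiment exposed and collected right after the fast. What this difference does to the values was not tested. Below, fasted means worms that went through the fast, whether or not they were fed again before collection. Whether replicate libraries were grown as separate cultures is not stated, so the p-values cover only the spread among libraries, part of which may be technical.

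A gene entered a deposited table only when its p before adjustment was under 0.05 in the comparison the authors made. At 20°C 2666 genes were listed, beside 14982 genes adjusted over (17.8%), and after heat shock 1442, beside 15456 (9.33%). Of the listed genes, 47 at 20°C and 41 after heat shock were outside the authors' adjustment. Having a value at all therefore means that the authors' comparison selected the gene, and a call below is not evidence independent of that selection. Fasted libraries at 20°C held 18062250 to 26398842 reads and fed libraries 15859001 to 20345508. After heat shock the ranges were 17421344 to 21770725 reads in fasted and 17071113 to 24718844 in fed libraries. At these depths the 8 enzymes had between 194 and 12133 raw counts in every library at 20°C.

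Saturated fatty acids made by the fatty acid synthase are lengthened by elongases, which carry out the condensing step of a cycle in the endoplasmic reticulum, and receive double bonds from desaturases, which take electrons from cytochrome b5. FAT-5, FAT-6 and FAT-7 place the initial double bond, FAT-5 mainly in palmitic acid and FAT-6 and FAT-7 mainly in stearic acid, which gives oleic acid. FAT-2, FAT-3, FAT-4 and FAT-1 add the further double bonds of polyunsaturated fatty acids, FAT-1 being the omega-3 desaturase that mammals lack. ELO-1 and ELO-2 lengthen polyunsaturated and saturated chains, and ELO-5 and ELO-6 lengthen the monomethyl branched-chain fatty acids that worms need for growth. Much of this metabolism takes place in the intestine, the main fat store of the worm.

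At 20°C, 7 of the 8 listed enzymes rose in fasted worms: the palmitic acid desaturase fat-5, the stearic acid desaturases fat-6 and fat-7, and the elongases elo-1, elo-2, elo-5 and elo-6. The increases ran from 1.38-fold for elo-1 to 3.17-fold for fat-7 at an adjusted p under 0.05 by edgeR's quasi-likelihood test. fat-1 was the exception, with a lower mean in fasted worms and an adjusted p of 0.057. By the same rule 368 of all 14982 genes passed (2.46%), 288 of them higher (1.92%) and 80 lower (0.534%) in fasted worms, and since the listing itself used this comparison the members' share is not read against that figure. By DESeq2 all 8 passed, 7 higher and 1 lower, beside 874 genes in all (5.83% of 14982). Only the 2666 listed genes could pass either test, so the members' share is not read against this figure either. All 8 had an unadjusted edgeR p under 0.05, beside 2385 of the 2666 listed genes (89.5%). The median log2 fold change of the 8 enzymes was 1.08, beside 0.57 over all 2666 listed genes.

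**Figure D1:**
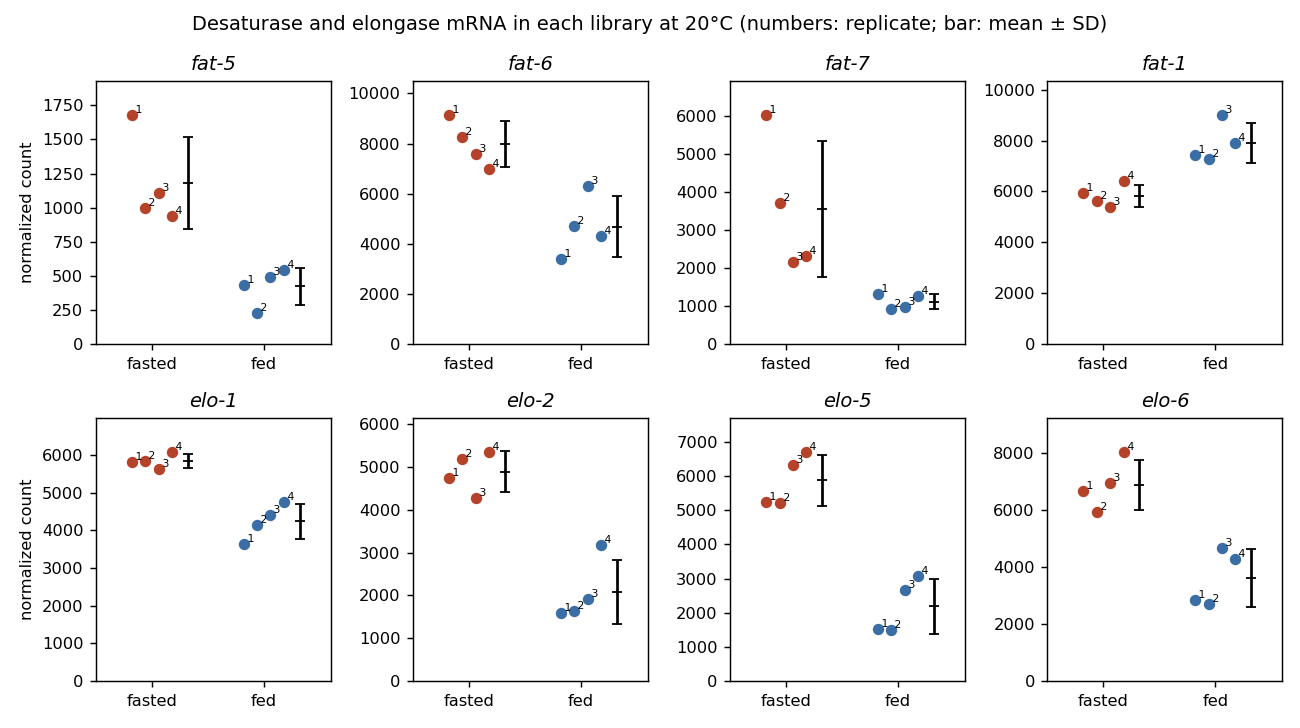
Normalized count (raw count divided by the size factor of its library) of each of the 8 listed enzymes in the 4 fasted and the 4 fed libraries at 20°C, each point a library with its replicate number, and each bar the mean ± SD. For 7 genes every fasted point lies above every fed point, and for fat-1 every fasted point lies below, at 5385 to 6393 in fasted against 7258 to 8989 in fed libraries.

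The desaturase fat-5 (W06D12.3, chromosome V, 17723780 to 17726825, plus strand, 3 exons) had 1677, 1000.2, 1105 and 938 normalized counts in fasted libraries 1 to 4, against 435, 231, 492 and 540 in fed libraries 1 to 4. Coordinates here and below are those of the files (build WBcel235), and exon counts are those of the longest Ensembl transcript. In Ensembl fat-5 runs from 17725004 to 17726818, so its counts may include reads outside its Ensembl exons. The lowest fasted library was above the highest fed library, and fasted library 1 stood well above the other fasted libraries. Means were 1179.9 ± 338 in fasted and 424 ± 136 in fed worms (SD, n = 4 each), a log2 fold change of 1.47 with a standard error of 0.27 and an edgeR adjusted p of 0.022. Within the gene lies W06D12.8, a short noncoding RNA on the opposite strand that is also listed, at 9.51 ± 1.19 normalized counts in fasted and 1.78 ± 0.882 in fed worms. Whether the counting used strand is not stated, so reads of the pair, and of twk-42, which also overlaps fat-5 on the opposite strand, cannot be told apart.

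fat-6 (VZK822L.1, chromosome IV, 11913690 to 11915687, minus strand, 5 exons) was the most counted of the 3 genes that place the initial double bond. Its normalized counts were 9123, 8279, 7575 and 6968 in fasted libraries 1 to 4, against 3406, 4722, 6299 and 4329 in fed libraries. The groups did not overlap, but fed library 3 came close to the lowest fasted library. Means of 7986 ± 928 in fasted and 4689 ± 1207 in fed worms gave a log2 fold change of 0.77 (standard error 0.17, edgeR adjusted p = 0.047).

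Its close paralog fat-7 (F10D2.9, chromosome V, 7151356 to 7153146, minus strand, 5 exons) showed the greatest fold change of the 8 enzymes. Normalized counts were 6018, 3706, 2171 and 2312 in fasted libraries 1 to 4, against 1330.3, 921, 972 and 1261 in fed libraries. Fasted worms varied more than fed worms here: the highest fasted library was 2.77 times the lowest, while the fed libraries differed by 1.44 times at most. Means were 3552 ± 1784 in fasted and 1121 ± 205 in fed worms, and the log2 fold change was 1.66 (standard error 0.30, edgeR adjusted p = 0.021). fat-6 and fat-7 are similar paralogs, and how reads that fit both were counted is not stated, so the value of either alone is uncertain to that extent.

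fat-1 (Y67H2A.8, chromosome IV, 13315642 to 13318783, plus strand, 3 exons), the omega-3 desaturase, had 5932, 5631, 5385 and 6393 normalized counts in fasted libraries 1 to 4, against 7449, 7258, 8989 and 7895 in fed libraries. Every fasted library was below every fed library. Means were 5835 ± 434 in fasted and 7898 ± 775 in fed worms. The log2 fold change of -0.44 (standard error 0.10) did not pass edgeR's test (adjusted p = 0.057). It passed by DESeq2 (adjusted p = 0.0039), by limma on log2(FPKM + 1) (0.041) and with library reads as the only scaling (0.038), so the call depends on the tool and the scaling. fat-2, whose gene starts 5061 bases downstream of fat-1 in the Ensembl annotation, is the desaturase that acts on oleic acid, and it is not listed in either table.

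Of the elongases, elo-1 (F56H11.4, chromosome IV, 9526359 to 9528350, plus strand, 4 exons), which lengthens polyunsaturated fatty acids, had the tightest fasted values of the 8 enzymes. They were 5813, 5848, 5629 and 6076 normalized counts in fasted libraries 1 to 4, against 3642, 4152, 4411 and 4739 in fed libraries. The fasted group lay wholly above the fed group, with a coefficient of variation of 3.14% in fasted and 10.9% in fed worms. Means of 5841 ± 184 in fasted and 4236 ± 463 in fed worms gave a log2 fold change of 0.46 (standard error 0.10, edgeR adjusted p = 0.044).

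elo-2 (F11E6.5, chromosome IV, 17466060 to 17467408, minus strand, 5 exons), which lengthens palmitic acid among other chains, had 4744, 5197, 4277 and 5349.5 normalized counts in fasted libraries 1 to 4, against 1580.1, 1637, 1916 and 3185 in fed libraries. Fed library 4 stood above the other fed libraries but below all fasted ones. Means were 4892 ± 484 in fasted and 2079.6 ± 751 in fed worms, and the log2 fold change was 1.23 (standard error 0.21, edgeR adjusted p = 0.016).

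elo-5 and elo-6 are neighbours on chromosome IV, on the same strand with 9511 bases between them in the Ensembl annotation. elo-5 (F41H10.7, 5374598 to 5377275, minus strand, 4 exons) had 5256, 5207, 6332 and 6706 normalized counts in fasted libraries 1 to 4, against 1508, 1497, 2672 and 3068 in fed libraries. The means of 5875 ± 759 in fasted and 2186 ± 806 in fed worms gave a log2 fold change of 1.43 (standard error 0.23, edgeR adjusted p = 0.014), the smallest adjusted p of the 8 enzymes. The gene F41H10.3 overlaps it on the opposite strand and is not listed at 20°C.

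elo-6 (F41H10.8, 5386627 to 5388561, minus strand, 3 exons) had 6658, 5908, 6925 and 8026 normalized counts in fasted libraries 1 to 4, against 2826, 2685, 4666 and 4279.9 in fed libraries. In fed worms libraries 1 and 2 were low and libraries 3 and 4 high for both elo-5 and elo-6, and for both genes all fasted libraries were above all fed ones. Means of 6879 ± 878 in fasted and 3614 ± 1006 in fed worms corresponded to a log2 fold change of 0.93 (standard error 0.19, edgeR adjusted p = 0.034).

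For all 8 enzymes the fasted and fed libraries did not overlap, which was also so for 1410 of the 2666 listed genes (52.9%). The exact permutation test, two-sided, gave 0.029 for each enzyme, the smallest p that 4 against 4 libraries allow. Any gene without overlap gets this p, so it adds nothing to the separation itself. Same-numbered libraries at 20°C deviated weakly together from their group means, with correlations of 0.12 to 0.36. On these data alone the numbers were taken as pairs, and the replicate number was also fitted as a block. The same 7 enzymes were called with it, and fat-1 again was not (adjusted p = 0.057), while the calls over all genes went to 686 (4.58%). Because the groups did not overlap, every possible pairing puts the fasted library above the fed one for the 7 genes that rose, and below it for fat-1.

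**Figure D2:**
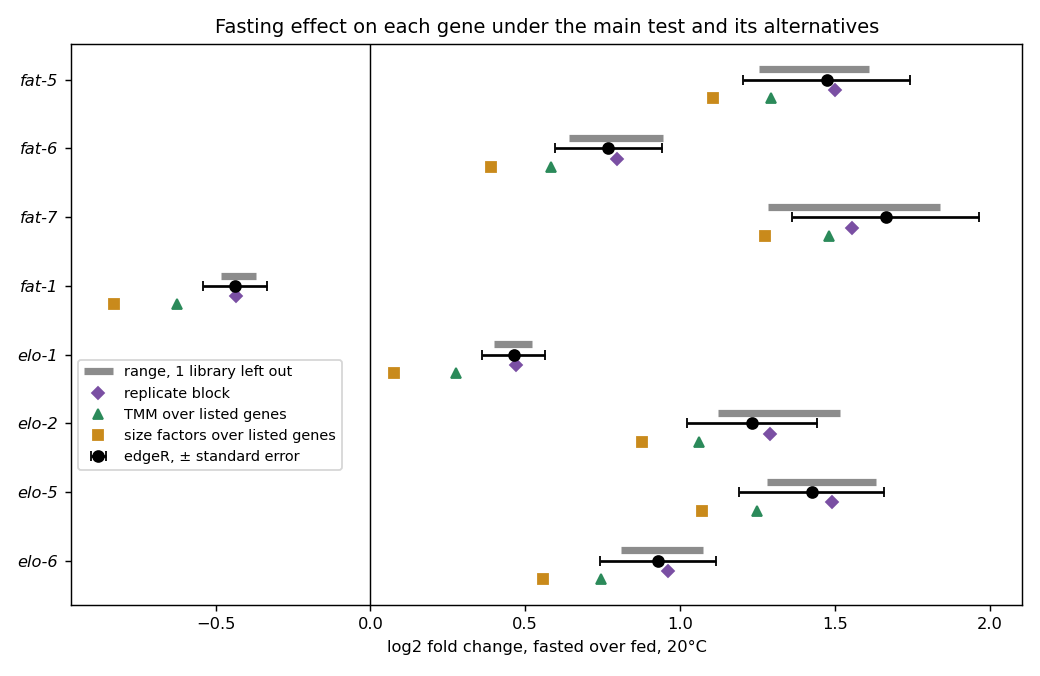
Log2 fold change of each enzyme, fasted over fed worms at 20°C (x axis), under edgeR's test (black, ± standard error), with the replicate block (diamonds), with other scalings (triangles and squares) and as the range over 8 fits that leave out a library (grey bars). No enzyme changed direction, and elo-1 came closest to 0, at 0.08 with size factors computed over the listed genes.

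The calls changed more than the directions did when a library was left out. Such fits also rest on fewer libraries, and what the missing library and the smaller number each do cannot be told apart. Over the 8 fits that each left out a library, elo-5 was called in 8, fat-5 and fat-7 in 5, elo-2 in 4, elo-6 in 3, fat-6 and elo-1 in 1, and fat-1 in 0. Without fed library 1 only elo-5 was called among the 8 enzymes, and without fasted library 1 only fat-7 and elo-5. Without fasted library 3 the called enzymes numbered 3 (fat-7, elo-2 and elo-5), as they did without fasted library 4 (fat-5, fat-7 and elo-5) and without fed library 2 (fat-5, elo-2 and elo-5). Without fed library 3 they numbered 4, without fasted library 2 they numbered 5 and without fed library 4 they numbered 6. The number of all genes called ran from 107 to 471 over these fits, and it was lowest without fasted library 1.

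How the libraries were scaled also changed the calls. TMM factors and DESeq2 size factors were made over only the listed genes, which the authors' comparison had selected. Most of these genes were higher in fasted worms. The median log2 fold change of all listed genes was 0.57 with the authors' size factors, 0.38 with TMM factors over the listed genes and 0.18 with DESeq2 size factors over the listed genes. The split of higher against lower calls was 288 to 80, 156 to 153 and 143 to 603 under these scalings. fat-5, fat-7, elo-2 and elo-5 were called higher under all of them and lay above these medians, whereas elo-1 lay below them. With TMM factors fat-6 and elo-1 were not called and fat-1 was called lower (log2 fold change -0.63, edgeR adjusted p = 0.020), and with size factors over the listed genes elo-6 was not called either and fat-1 was at -0.83. Library reads as the only scaling do not rest on the selected genes, and the split with them was 286 to 86. fat-6 (edgeR adjusted p = 0.049), elo-1 (0.041) and elo-6 (0.027) were then called higher, and fat-1 lower (0.038).

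Within a library, ratios of the raw counts of enzyme pairs do not depend on the scaling, and they are given here as a description. The ratio of fat-6 to fat-1 was 1.38 ± 0.198 in fasted and 0.589 ± 0.108 in fed worms (SD, n = 4 each), and that of elo-1 to fat-1 was 1.004 ± 0.0459 in fasted and 0.538 ± 0.0568 in fed worms. Both ratios were higher in every fasted library than in any fed library. This follows from the separate values, as fat-6 and elo-1 were higher and fat-1 lower in every fasted library. The elo-2 to elo-1 ratio was 0.836 ± 0.0604 in fasted and 0.484 ± 0.127 in fed worms, and the elo-5 to elo-6 ratio was 0.855 ± 0.0545 in fasted and 0.595 ± 0.0826 in fed worms, again without overlap. Ratios among the genes that place the initial double bond overlapped between the groups: fat-7 to fat-6 was 0.431 ± 0.167 in fasted and 0.258 ± 0.106 in fed worms, and fat-7 to fat-5 was 2.93 ± 0.853 in fasted and 2.84 ± 0.892 in fed worms.

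Single libraries had their own profile over the 8 enzymes. Fasted library 1, the most deeply sequenced of the group at 26398842 reads, was the highest of the fasted libraries for fat-5, fat-6 and fat-7. Fasted library 4 was the highest for fat-1 and the 4 elongases and the lowest for fat-5 and fat-6. Among fed libraries, number 2 was the lowest for fat-1, fat-5, fat-7, elo-5 and elo-6, and number 4 the highest for fat-5, elo-1, elo-2 and elo-5. The genes that place the initial double bond and the elongases thus did not peak in the same fasted library.

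**Figure D3:**
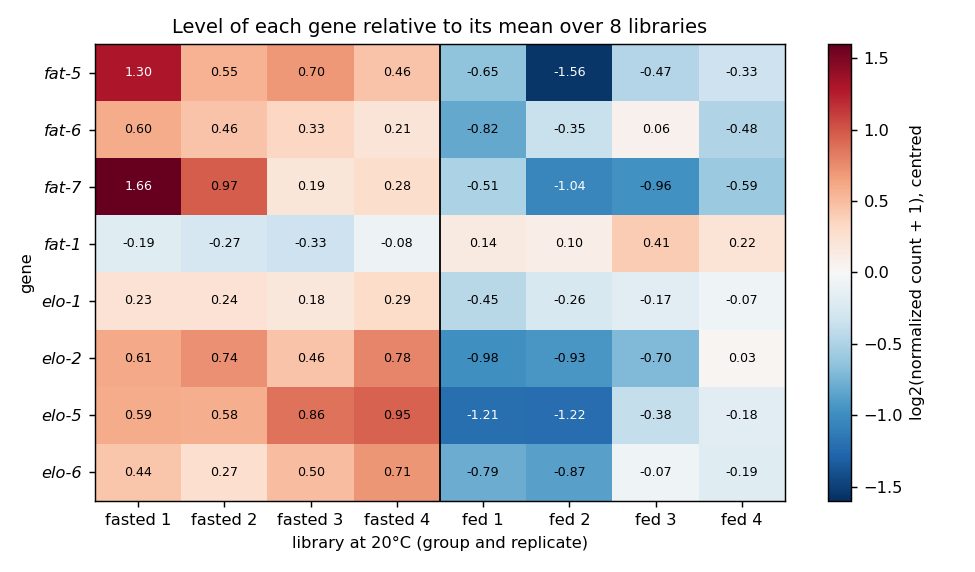
Log2(normalized count + 1) of each enzyme (rows) in each library at 20°C (columns, fasted left of fed), centred on the gene's mean over the 8 libraries, with red above and blue below that mean. fat-7 reaches 1.66 in fasted library 1 and fat-5 falls to -1.56 in fed library 2, while the fat-1 row runs the other way and stays between -0.33 and 0.41.

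As a measure of likeness, these centred values were compared with those of all listed genes whose mean normalized count was at least 50 (1864 genes), by the root mean square difference over the 8 libraries. Nearest to fat-1 was plag-15 (0.051 on the log2 scale), nearest to elo-1 was slc-25A18.1 (0.067), and nearest to elo-6 was nhx-2 (0.12), a sodium-proton exchanger of the intestine. For elo-5 it was kin-15 (0.12), for elo-2 the myosin light chain gene mlc-1 (0.14), for fat-6 the nuclear receptor gene nhr-137 (0.14), for fat-5 M03B6.1 (0.26) and for fat-7 kel-8 (0.38). In no case was the nearest gene another of the enzymes, though fat-5 ranked 2 among the genes nearest to fat-7, and elo-2 ranked 16 among those nearest to elo-5.

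Levels can be compared between genes only per length, and the length used changed the order. In FPKM, the deposited counts scaled by gene length and library reads, elo-6 was highest in fasted worms (378 ± 46.7) and fat-1 in fed worms (295 ± 26.8), and fat-5 was lowest in both (25.8 ± 7.23 in fasted and 9.39 ± 2.87 in fed worms). For fat-6 the authors' gene length is 3488 bases, although the gene spans 1998 bases and its exons in Ensembl cover 1166. For fat-5 that length is 2335 bases, against 1104 in Ensembl. The length of fat-5 is within its own span of 3046 bases, and a length over the gene's own span, as for fat-6, is given for 63 of the 2666 listed genes (2.36%). With the Ensembl exon length, fat-6 was at 350 ± 39.5 FPKM in fasted and 209 ± 53.4 in fed worms, in place of 117 ± 13.2 in fasted and 69.8 ± 17.9 in fed worms, and moved from rank 7 to rank 2 of the 8 enzymes in fasted worms. The other 6 enzymes had nearly the same length in both sources.

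On the exon-length scale, elo-6, fat-6 and elo-5 led in fasted worms, at 379.5 ± 46.9, 350 ± 39.5 and 326 ± 44.6 FPKM, and neighbours in this order lay within an SD of each other. In fed worms fat-1 (289 ± 26.3 FPKM) stood above fat-6, elo-1 and elo-6, which lay close together. The summed level of fat-5, fat-6 and fat-7 was 565 ± 128 FPKM in fasted (444 to 740) and 280 ± 47.2 FPKM in fed libraries (237 to 347). fat-7 made up 27.3% ± 7.08 of that sum in fasted and 19.1% ± 5.86 in fed libraries, with overlapping ranges of 20.5% to 36.4% in fasted and 12.9% to 26.3% in fed libraries. By the authors' lengths its share was 51.0% ± 8.62 in fasted and 40.0% ± 8.85 in fed libraries, since the long gene length lowers fat-6.

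**Figure D4:**
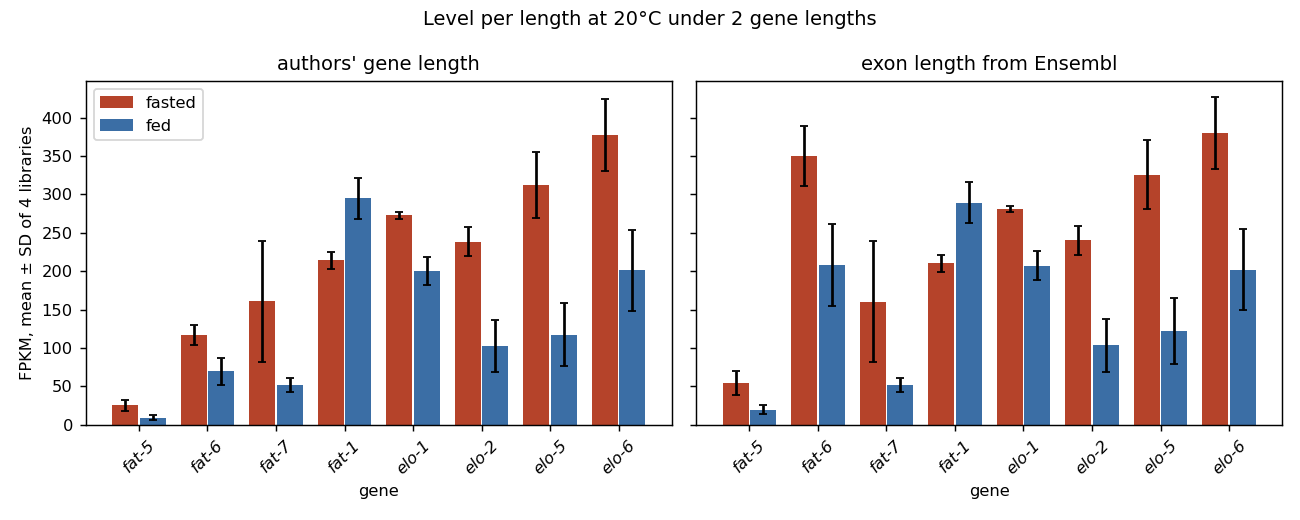
Mean level of each enzyme in FPKM (bars, ± SD of 4 libraries) in fasted and fed worms at 20°C, with the authors' gene length (left) and the exon length from Ensembl (right). fat-6 goes to 350 from 117 FPKM in fasted worms when the exon length is used, fat-5 stays lowest, and fat-1 is the only gene whose fasted bar is below its fed bar.

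The other desaturases and elongases with names (fat-3, fat-4, elo-3, elo-4, elo-7, elo-8 and elo-9) were not listed at 20°C, 0 of 7. Of 14 genes that supply or complete fatty acid synthesis, 6 were listed, all with higher means in fasted worms, and 2 of them rose by edgeR's test. acs-1, an acyl-CoA synthetase that acts with elo-5 on branched-chain fatty acids, had 4856, 4834, 3293 and 5004 normalized counts in fasted libraries 1 to 4, against 2324, 2328, 2226 and 3149.6 in fed libraries (log2 fold change 0.84, standard error 0.16, adjusted p = 0.025). let-767, a ketoacyl-CoA reductase of the elongation cycle, averaged 5039.8 ± 419 in fasted and 3405 ± 443 normalized counts in fed worms (log2 fold change 0.57, standard error 0.12, adjusted p = 0.036). art-1, related to the reductase of the last elongation step in yeast, did not pass (0.38, adjusted p = 0.075), and with size factors over the listed genes its direction turned (-0.015). acs-1 and let-767 were each called in 2 of 8 fits that left out a library and lost the call with TMM factors (adjusted p = 0.075 and 0.18) and with size factors over the listed genes (0.25 and 1.0). The list's median log2 fold change was 0.43, below the 0.57 of all listed genes.

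Of 15 regulators known to act on desaturase genes, 1 was listed at 20°C, and 1 could not be looked up because its name was not matched in RefSeq. nhr-80, a nuclear receptor that promotes expression of fat-6 and fat-7, had 220.3, 256, 202 and 175 normalized counts in fasted libraries 1 to 4, against 69.7, 119, 119.5 and 106 in fed libraries. The groups did not overlap, and the gene rose (log2 fold change 1.04, standard error 0.22, edgeR adjusted p = 0.036). That call was lost in all 8 fits that left out a library, and with TMM factors (adjusted p = 0.079) and size factors over the listed genes (0.16).

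Genes of fat storage and fat use moved both ways. Of 19 genes of triglycerides, lipases and lipid droplets 6 were listed, 1 rising and 1 falling by edgeR's test. fitm-2, a homolog of the mammalian fat storage-inducing proteins, rose (1883 ± 24.7 in fasted and 1422 ± 60.0 normalized counts in fed worms, log2 fold change 0.41, adjusted p = 0.043), and lbp-8, a lysosomal lipid-binding protein, fell (5.19 ± 3.43 in fasted and 50.3 ± 27.6 in fed worms, log2 fold change -3.27, adjusted p = 0.016). The call of fitm-2 was lost in all 8 fits that left out a library, and its log2 fold change was 0.0099 with size factors over the listed genes, whereas lbp-8 was called in 7 of the 8. The lipid droplet protein dhs-3 was at -0.78 (adjusted p = 0.054) and passed with the replicate block (0.025), under which 1 gene of the list rose and 4 fell. The median log2 fold change of the list was -0.77.

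Of 29 genes of fatty acid beta-oxidation 13 were listed, and 2 rose (3 with the replicate block), 1 fell and 10 did not pass. The fall was that of acs-2, a mitochondrial acyl-CoA synthetase, which had 130.1, 31.6, 97.6 and 126 normalized counts in fasted libraries 1 to 4, against 439.8, 545, 423 and 699 in fed libraries. All fasted libraries were far below all fed ones (log2 fold change -2.44, standard error 0.37, edgeR adjusted p = 0.010). The study's own acs-2 measure went the other way. It reported more GFP driven by the acs-2 promoter in worms fasted for 24 h and then kept on food for 24 h. That is reporter fluorescence rather than mRNA, and what sets it apart from these counts was not tested. acdh-1, an acyl-CoA dehydrogenase of short and branched chains, rose (log2 fold change 0.54, adjusted p = 0.036), as did the enoyl-CoA hydratase gene ech-9 (1.78, adjusted p = 0.037) at only 31.7 ± 10.3 normalized counts in fasted and 9.16 ± 2.75 in fed worms. ech-9 lost the call in all 8 fits that left out a library (adjusted p = 0.051 to 0.11), acdh-1 kept it in 2 of them and acs-2 in 8. With TMM factors and size factors over the listed genes, ech-9 (adjusted p = 0.058 under both) and acdh-1 (0.13 and 1.0) were not called. acox-1.2, a peroxisomal acyl-CoA oxidase, was at -1.34 without passing (adjusted p = 0.095), and the median log2 fold change of the list was -0.31.

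**Figure D5:**
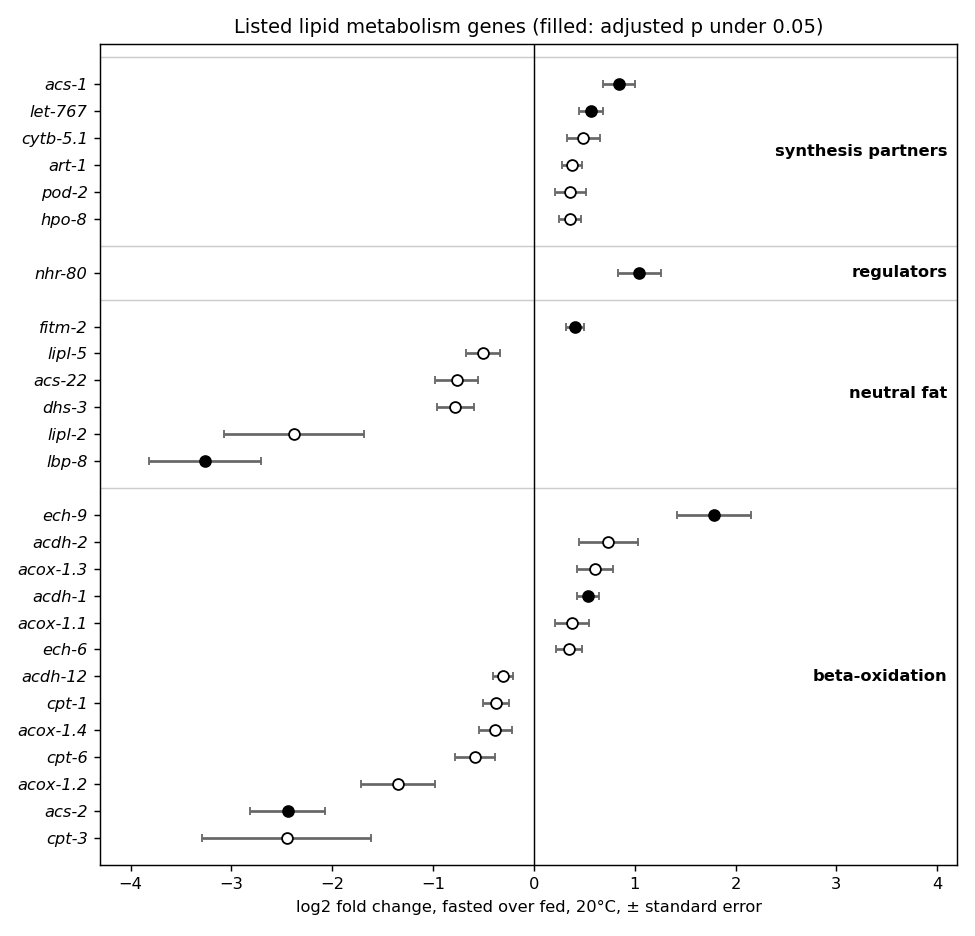
Log2 fold change, fasted over fed worms at 20°C (x axis, ± standard error), of each listed gene of 4 lipid metabolism lists, filled where the edgeR adjusted p is under 0.05. The 6 synthesis partners and nhr-80 all lie right of 0, whereas 5 of 6 neutral fat genes and 7 of 13 beta-oxidation genes lie left of it.

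RNA of whole worms mixes all tissues, so more cells of a tissue and more RNA per cell cannot be told apart. Of 11 intestine markers 6 were listed, and the name of 1 was not matched in RefSeq. The listed ones had summed normalized counts of 29635 to 36097 in fasted and 30413 to 36103 in fed libraries at 20°C, which overlap. The largest part of this sum was cpr-6 (16785 ± 2761 in fasted and 23591 ± 1637 in fed worms), followed by act-5 (9085 ± 830 in fasted and 4460 ± 576 in fed worms). As these 2 went opposite ways, the overlap of the sums does not show whether the intestine's share of the RNA changed. The listed intestine markers differed in direction: act-5 (log2 fold change 1.03) and ifb-2 (0.87) rose, pept-1 was at 1.21 and vha-6 at 0.39 without passing, and cpr-6 (-0.49) and mtl-2 (-1.296) had lower means without passing, while with the block pept-1 also rose and cpr-6 fell. The 7 listed of 8 muscle markers summed to 42065 to 61367 in fasted and 22600 to 39559 in fed libraries, with 3 genes rising (6 with the replicate block). The 4 listed of 10 hypodermis markers summed to 7678 to 11233 in fasted and 2203 to 4336 in fed libraries, a sum made up mostly of col-19 (9273 ± 1451 in fasted and 2865 ± 798 in fed worms). col-19 and elt-3 rose, dpy-7 (-1.203) and wrt-2 (-1.81) had lower means without passing, and the list's median log2 fold change was -0.09. The yolk protein genes vit-1, vit-3, vit-4 and vit-5, 4 listed of 6 and made in the adult hermaphrodite intestine, all fell, with sums of 283397 to 335909 in fasted and 562025 to 687395 in fed libraries. Germline and oocyte markers (3 listed of 15) summed to 58323 to 81450 in fasted and 77339 to 96707 in fed libraries, and neuron markers (3 of 8) to 1321 to 2654 in fasted and 888 to 1430.2 in fed libraries, with no gene of either list passing (1 neuron marker with the block). For sperm 1 of 8 markers was listed, spe-11, at 2.18 to 12.2 in fasted and 0 to 2.38 normalized counts in fed libraries. What part these tissues and the stage of the worms have in the values of the enzymes was not tested.

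After heat shock none of the 9 enzymes had a value, so neither their levels nor the difference of the fasting effect between 20°C and heat shock could be computed. By edgeR's test 0 of 15456 genes passed in heat-shocked worms (0.0%), with 1132 of the 1442 listed genes at an unadjusted p under 0.05 (78.5%), and 51 passing by DESeq2 (0.33%). An absence from a table so selected does not show that fasting had no effect on an enzyme there. Of the other desaturases and elongases 1 of 7 was listed, elo-3 (D2024.3, chromosome IV, 7237728 to 7239896, plus strand), which was not listed at 20°C. It had 1579.7, 1509, 1455 and 1647 normalized counts in fasted heat-shocked libraries 1 to 4, against 2018, 1698, 1645 and 1757 in fed heat-shocked libraries. The highest fasted library just overlapped the lowest fed one, and the log2 fold change was -0.20 (standard error 0.08, edgeR adjusted p = 0.62).

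The rest of the pathway was as sparse in heat-shocked worms. No synthesis partner was listed, 0 of 14, and 1 of 15 regulators, nhr-25, a nuclear receptor gene at 26.5 ± 5.04 normalized counts in fasted and 49.7 ± 21.1 in fed heat-shocked worms (log2 fold change -0.91, edgeR adjusted p = 0.63). Of the neutral fat genes 2 of 19 were listed, the perilipin gene plin-1 (0.14, adjusted p = 0.63) and lbp-8 (-2.11, adjusted p = 0.68). Of the beta-oxidation genes 2 of 29 were listed, acox-1.2 (-1.33, adjusted p = 0.53) and acox-3 (-0.52, adjusted p = 0.59). lbp-8 and acox-1.2 are the genes of these lists that both tables hold, and the log2 fold changes at 20°C were -3.27 and -1.34. The test of the difference between temperatures, over the 410 genes in both tables, called 0 genes by edgeR and 6 by DESeq2.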

How the data were processed

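The raw counts per gene were made by the authors, with HISAT2 2.0.5 (build WBcel235) and then featureCounts 1.5.0-p3, from poly(A) RNA. The deposited signal values are normalized counts, each count divided by the authors' DESeq2 size factor. The deposited FPKM values rest on the authors' gene lengths and whole-library reads. The authors' log2 fold changes and p-values (DESeq2, version not given in the sources used here) were not used, except that the p-values gave the number of genes adjusted over. Each table holds only genes that passed p under 0.05 there. No column of other samples was present.

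The reads of each library follow from the count times 1e9 over the product of FPKM and length. Raw counts of all listed genes were tested with edgeR 4.0.16 (quasi-likelihood, R 4.3.3), using these reads and the authors' size factors, separately at each temperature. Standard errors are the log2 fold change over the root of the test statistic. Benjamini-Hochberg adjustment ran over 14982 and 15456 genes, unlisted genes set to 1, with calls at an adjusted p under 0.05. The difference between temperatures was an interaction over all 16 libraries. Single values were compared by exact permutation in Python 3.11.15 (scipy 1.17.1). RefSeq named 2638 and 1418 of the listed genes, and exons came from Ensembl release 115. Sequences were not used here.

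Alternatives were DESeq2 1.42.0, limma 3.58.1 after log2 transformation of FPKM with a pseudocount of 1 or 0.1, size factors or TMM factors made over listed genes, library reads alone, a mean count of at least 10, the replicate block, adjustment over all RefSeq genes and each library left out. Deviations of same-numbered libraries correlated at 0.18, 0.14, 0.36 and 0.12 over 2459 genes at 20°C, all above the bound of 0.1 for taking numbers as pairs. The pairing comes from the data, and libraries numbered 2 correlated best with number 1. After heat shock 1 of 4 was below it (0.087). The tests were tested on simulated data.

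Named are the listed enzymes, pathway genes that pass or have 1 of the 3 smallest p-values of their list and table, and the gene nearest to each enzyme. W06D12.8, twk-42 and F41H10.3 are named for their position, and marker genes by their lists. The members and lists were chosen with earlier results of these data known.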

Additional observations from a re-analysis of the deposited data

Results flagged for a closer look

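In a search for single libraries far from the others of their group, none of the 16 sets of 4 values of the desaturases and elongases stood out, and 3 of 50 sets did when the named pathway genes were included. By chance alone about 1 in 20 sets would. acs-1 was low in fasted library 3 at 20°C, with 3293 normalized counts against 4834 to 5004 in the other fasted libraries (gap over range 0.901), and high in fed library 4, with 3150 against 2226 to 2328 in the other fed libraries (0.890). After heat shock lbp-8 was high in fasted library 4, with 16.2 normalized counts against 1.08 to 2.05 in the other fasted libraries (0.936).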

How the results depend on the processing

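Over 136 alternative values of the 8 enzymes (17 per gene), 0 changed direction, 87 kept their side of the threshold, 43 lost the call and 6, all of fat-1, gained it. Called enzymes numbered 7 in the main test, 1 (elo-5) after adjustment over all RefSeq genes, and 1 to 6 with a library left out. Of all genes at 20°C, 368 were called, against 874 by DESeq2, 746 with DESeq2 size factors over the listed genes, 686 with the replicate block and 117 after adjustment over all RefSeq genes, and 107 to 471 with a library left out. After heat shock 0 genes were called, against 51 by DESeq2 and 1 and 2 by limma with pseudocounts of 1 and 0.1. For the difference between temperatures 0 were called, against 6 by DESeq2 and 16 after adjustment over only the genes in both tables. art-1 reversed to -0.015 with DESeq2 size factors over the listed genes. With the replicate block the same 7 enzymes were called and fat-1 was not, and it called 0 genes after heat shock and 0 for the difference. The cause of these shifts was not tested. The lowest raw count of an enzyme was 194, whereas lbp-8 and ech-9 rest on few counts.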
